A study of Mus musculus with 7 samples.

Results

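HDAC1 bound 714 regions of the mouse limb bud genome that met the start of a noncoding transcript and no start of a protein-coding transcript, out of 15347 bound regions (4.65%, 95% Wilson interval 4.33 to 4.997). A region counted as lying at a start when at least 1 bp of it overlapped a window around an annotated transcription start site that reached 2 kb upstream and 1 kb downstream (GENCODE M21 basic, mm10). By the same windows, 10759 regions lay at a protein-coding start and 3874 at no annotated start of any kind. The names noncoding-start, coding-start and distal peaks are used here for these 3 classes. The choice of the noncoding-start peaks used the coordinates and the annotation only.

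HDAC1 ChIP-seq was carried out on wildtype Swiss Webster mouse embryos at E11.5 (40 to 44 somites), with forelimb and hindlimb buds combined and with the tissue of 3 litters in each sample. The experiment had 4 HDAC1 ChIP samples (antibody ab7028) and 3 input samples, and none of them carried a transgene, a mutation or a treatment. The deposited result is a single ordered list of peaks made from the 4 ChIP samples, with a chromosome, a start and an end for each peak and no height, read count or value per sample. There is therefore no replicate error behind any value given here. Intervals and tests are over regions or start windows, which are not biological replicates and are not independent where they neighbour each other. Limb buds hold mesenchyme, ectoderm and other cells, and a list of coordinates could not be checked against markers of any of them.

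HDAC1 is the catalytic subunit of several corepressor complexes, including Sin3, NuRD and CoREST, and removes acetyl groups from histone tails. It is found both at repressed genes and at active promoters, where acetylation turns over quickly. Noncoding transcripts range from long noncoding RNAs (lncRNAs), many of which start close to a developmental regulator, to the small RNAs of splicing, ribosome modification and gene silencing. MicroRNAs (miRNAs) are cut from longer primary transcripts and silence mRNAs that pair with their seed, bases 2 to 8 of the mature strand. For miRNAs and for many small nucleolar RNAs, the annotated start is that of the hairpin or the mature RNA and not that of the transcript it is cut from, so a peak counted here can lie inside such a transcript.

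Shown here, for the contrast in their base composition, are 4 peaks at miRNA genes and their host transcripts. Their early positions are not typical of miRNA peaks, which are described below. The central 300 bases of each peak are given on the forward strand of GRCm38/mm10, with each CpG in capitals. The peak at Mir17hg, the host of the miR-17 cluster, was at position 878 in the list and had 56 CpGs in these 300 bases. The peak over Mirlet7i, at position 1608, had 36. The peak that covered Mir199b, at position 501, had 4, and the peak over Mir199a-2 and a start of its host Dnm3os, at position 1172, had 5. The first 2 windows lie outside protein-coding genes, and the other 2 lie in introns of Dnm1 and Dnm3. Each label names the locus of the peak, and only the Mirlet7i window holds an annotated start of the named gene.
Mir17hg chr14:115041625-115041924: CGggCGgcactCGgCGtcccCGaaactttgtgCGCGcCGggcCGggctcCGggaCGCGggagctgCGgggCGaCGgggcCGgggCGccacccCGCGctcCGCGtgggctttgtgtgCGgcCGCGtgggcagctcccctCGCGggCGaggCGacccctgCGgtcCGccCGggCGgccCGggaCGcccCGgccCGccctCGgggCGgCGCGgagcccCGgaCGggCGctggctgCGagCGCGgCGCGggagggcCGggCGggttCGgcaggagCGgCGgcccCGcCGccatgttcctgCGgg
Mirlet7i chr10:122985600-122985899: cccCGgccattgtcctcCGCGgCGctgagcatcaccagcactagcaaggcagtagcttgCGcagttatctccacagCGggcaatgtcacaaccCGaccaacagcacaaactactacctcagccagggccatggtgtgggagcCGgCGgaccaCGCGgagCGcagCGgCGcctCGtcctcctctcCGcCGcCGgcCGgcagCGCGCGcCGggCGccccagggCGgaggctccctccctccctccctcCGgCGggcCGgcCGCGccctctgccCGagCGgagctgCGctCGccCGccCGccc
Mir199b chr2:32317725-32318024: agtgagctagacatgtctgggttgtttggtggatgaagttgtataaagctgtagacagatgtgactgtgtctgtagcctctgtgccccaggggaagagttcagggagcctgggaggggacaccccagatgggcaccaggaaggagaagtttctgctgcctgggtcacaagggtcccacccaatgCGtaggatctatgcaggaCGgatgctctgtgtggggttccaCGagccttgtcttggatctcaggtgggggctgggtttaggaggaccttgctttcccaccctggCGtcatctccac
Dnm3os chr1:162217950-162218249: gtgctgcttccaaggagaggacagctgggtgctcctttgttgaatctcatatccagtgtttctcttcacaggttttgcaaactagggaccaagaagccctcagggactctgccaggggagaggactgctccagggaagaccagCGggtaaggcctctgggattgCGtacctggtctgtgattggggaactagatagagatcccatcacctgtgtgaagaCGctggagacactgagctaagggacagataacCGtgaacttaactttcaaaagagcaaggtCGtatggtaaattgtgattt

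The noncoding-start peaks met the start windows of 78 miRNA genes, and RefSeq (GRCm38.p6) gave mature sequences for 58 of these. Those genes made 98 mature miRNAs with 91 different seeds, and 5 seeds were found at 2 or more places in the genome over 100000 bp apart or on separate chromosomes. Mature miRNAs that share a seed with another gene are shown with the seed in capitals. The 3p arm of all 3 miR-199 genes is the same sequence, so these genes differ in their loci and not in this product. The 2 miR-125b genes also share their 5p sequence, and miR-351-5p has the same seed with another 3′ part.
miR-199a-3p and miR-199b-3p: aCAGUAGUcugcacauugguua
miR-199a-5p: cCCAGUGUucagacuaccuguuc
miR-125b-5p: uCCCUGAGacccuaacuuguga
miR-351-5p: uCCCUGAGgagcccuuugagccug
let-7e-5p: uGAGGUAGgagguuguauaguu
let-7i-5p: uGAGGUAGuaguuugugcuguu
miR-193a-3p: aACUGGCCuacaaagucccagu
miR-193b-3p: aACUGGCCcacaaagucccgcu
miR-17-5p: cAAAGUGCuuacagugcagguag
miR-20a-5p: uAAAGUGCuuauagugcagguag
miR-19a-3p: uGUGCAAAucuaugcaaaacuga
miR-19b-3p: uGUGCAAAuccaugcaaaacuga
miR-132-3p: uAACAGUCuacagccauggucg
miR-212-3p: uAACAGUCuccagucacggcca

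Most noncoding-start peaks lay nearest to an lncRNA start. Each peak was given the type of the transcript whose start was closest to its centre. By this assignment 442 of 714 (61.9%) were at lncRNAs, 75 at pseudogenes, 71 at transcripts of the GENCODE type TEC, which await an experimental test, 65 at miRNAs, 59 at other small RNAs and 2 at a noncoding transcript of a protein-coding gene. Among the lncRNA peaks, 232 were at lincRNAs and 140 at antisense transcripts. The 2 peaks at noncoding transcripts of protein-coding genes were at Gm20715 (650 bp, position 11) and Gm20661 (800 bp, position 6821). The peaks belonged to 617 genes, 83 of which had 2 or more and none more than 5. The starts of a single gene were met by 589 peaks and those of 2 or more genes by 125, and 95 peaks met starts of more than 1 of the types above.

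The number of peaks per type follows in part how many starts of that type are annotated, and the share of start windows with a peak gave a different order. Of 30151 noncoding start windows that met no coding window, 615 (2.04%) held an HDAC1 peak, against 9844 of 25936 (38%) coding start windows. Overlapping windows of 1 gene were merged, so the windows differ in length. A longer window can meet a peak more easily, and the shares and tests were not adjusted for this. A peak lay in 335 of 8663 lncRNA windows (3.87%, 95% Wilson interval 3.48 to 4.29) and in 280 of 21488 windows of all other types (1.30%), a difference of 2.56 percentage points (95% interval 2.15 to 3.01, adjusted p = 4.54e-41, two-sided Fisher's exact test over windows). The share was 2.95% for miRNAs (55 of 1867), 2.65% for other small RNAs (92 of 3477) and 1.99% for TEC (56 of 2818). These intervals overlapped, and that of miRNAs (95% Wilson interval 2.27 to 3.81) also overlapped that of lncRNAs. Pseudogenes, the type with the most windows, had the lowest share among types with any peak at 75 of 12820 (0.585%). Without pseudogenes and TEC, the lncRNA difference was 1.30 points (3.85% of 8804 against 2.55% of 5850 windows, adjusted p = 2.02e-05, Fisher's exact test). None of 485 windows of immunoglobulin and T cell receptor segments held a peak (95% Wilson interval to 0.786%).

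**Figure D1:**
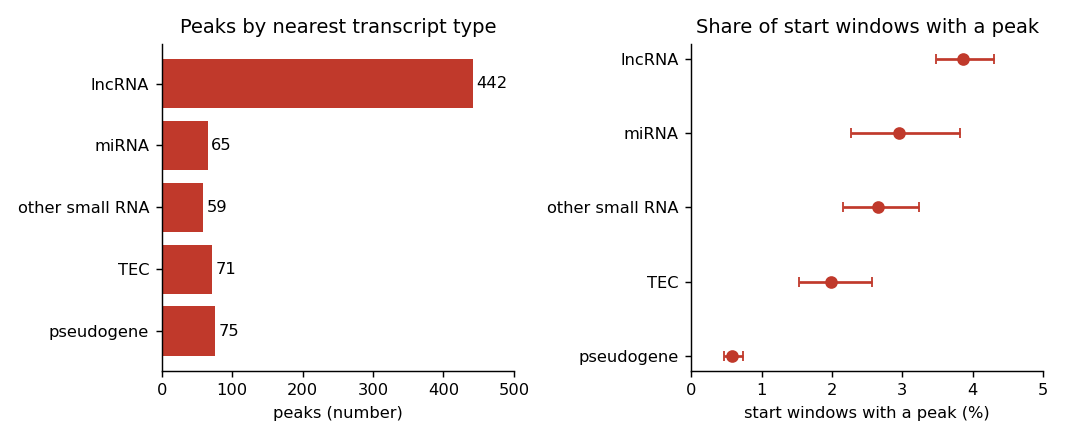
Left, number of noncoding-start peaks by the type of the nearest transcript start (2 peaks at noncoding transcripts of protein-coding genes are not drawn). Right, percent of start windows of each type outside coding start windows that held a peak, with 95% Wilson intervals as bars: lncRNA windows stood at 3.87% and pseudogene windows at 0.585%.

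The lncRNA peaks included the earliest and longest of the class. The first, at position 8, covered 6000 bp at 2810410L24Rik (chr11:120184600-120190599), outside protein-coding genes and 33254 bp from the nearest coding start, that of Slc38a10. 1810026B05Rik, beside the chromatin remodeller gene Chd2, had a 2250 bp peak at position 57. A 2750 bp peak at position 98 covered the start of AC141471.6 and lay 57812 bp from Cxxc5. Each of these 3 peaks covered the annotated start of its transcript. The fourth lncRNA peak in the list, at position 172, lay 1941 bp upstream of Gm9908, in an intron of Fat1 and 1653 bp from a Fat1 start. This peak was also at a RefSeq mRNA start.

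Among the longest lncRNA peaks, a pair stood next to each other in the list. 1810010K12Rik had a 2650 bp peak at position 375, 5287 bp from the start of Ptf1a, a bHLH factor of pancreas and hindbrain. Gm26796 had a 2500 bp peak at position 376, over an exon of Ccdc177 and 1288 bp from a Ccdc177 start.

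Some of these starts are noncoding only in the annotation that was used. A RefSeq mRNA start lay within the same window distance of 109 of the 714 peaks (15.3%), and the nearest gene of 14 peaks is protein-coding in RefSeq. Among these were Spata5l1 at position 176, Zswim6 at position 827 and Trerf1 at position 1222, a zinc finger gene. Zswim6 had a 3400 bp peak over the start of a processed transcript, 152547 bp from the nearest coding start in GENCODE. The class is therefore of peaks with no coding start in GENCODE basic, not of peaks that no mRNA start can reach.

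Small nucleolar RNAs (snoRNAs) guide the modification of ribosomal RNA and come from introns of otherwise untranslated host transcripts. Their listed host genes outside coding windows were all bound. Of 18 annotated genes in a list of such hosts, which also held Mir17hg, 11 were at a noncoding-start peak. Outside coding start windows were 10 of the 18, and all 10 held a peak (Snhg5, Snhg6, Snhg8, Snhg12, Snhg15, Snhg17, Snhg20, Dancr, Epb41l4aos and Mir17hg). Beside this stand 2.04% of all noncoding and 3.87% of lncRNA windows, given above. Hosts that lie only in coding windows, such as Gas5 and Zfas1, were not counted. Here and for the gene lists below, genes are counted, and a gene can have several start windows. The 2.04% and 3.87% are shares of windows. The units are therefore unlike, and the lists were drawn up with earlier results of these data known. The eleventh, Snhg18, lies in the coding window of Sema5a by another start, and its peak was 300 bp long at position 14766. The earliest of the snoRNA hosts was Dancr, whose 750 bp peak at position 954 covered the start of Snora26. Snhg6 followed at position 1689 (950 bp) and Epb41l4aos at position 1727 (500 bp). Snhg5 was at position 4525 (1050 bp), Snhg20 at 5212 (550 bp) and Snhg15 at 7429 (700 bp). Snhg12 was at position 8772 (1050 bp), Snhg17 at 8903 (700 bp) and Snhg8 at 10760 (350 bp), with a further 300 bp peak over Snora24 in Snhg8 at 9191. The first 25% of the list, which is 3836 peaks, held 4 of the 11 genes. Each of the 10 genes outside coding windows had a peak over an annotated start of its own.

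Imprinted and X-inactivation lncRNAs were bound at 4 of the 12 listed genes outside coding windows, beside 2.04% of all noncoding and 3.87% of lncRNA windows. At H19, the maternally expressed growth regulator and host of Mir675, a 650 bp peak was at position 4407. It covered the start of the small RNA transcript Gm27786 and no annotated H19 start. At Kcnq1ot1, which silences its neighbours in cis, a 1100 bp peak at position 7548 lay inside the transcript, from 50 bp downstream of its start. Airn, the antisense silencer of Igf2r, had 2 peaks at positions 11643 and 14016. Jpx, an activator of Xist, had a 400 bp peak over its start at position 12448. No peak lay in the windows of Meg3, Rian, Mirg, Snhg14, Peg13, Xist, Tsix or Ftx. Reads from both parental alleles are combined in these peaks.

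LncRNAs beside limb and homeobox genes were bound at 6 of the 23 listed genes outside coding windows, beside the same 2.04% and 3.87%, and 7 of the 36 annotated genes of that list were at a noncoding-start peak. Hoxb3os had 3 peaks at positions 7304, 11341 and 14488, with lengths of 450, 350 and 200 bp. Hottip, which lies 5′ of Hoxa13, had a 250 bp peak at position 14182, nearest to a small RNA start inside it. Dlx1as, antisense to the limb homeobox gene Dlx1, had a 250 bp peak at position 9523 that lay upstream of its start. Nkx2-2os was at position 8894 and Sox1ot at 15219, and Foxd2os had peaks at 10077 and 14047. The peaks at Hottip, Sox1ot and Foxd2os did not cover an annotated start of these genes. With the exception of Dnm3os (position 1172), the 7 genes had no noncoding-start peak in the first 25% of the list. The windows of Hotair, Haglr, Tbx3os1, Tbx3os2, Dlx6os1 and Fendrr were among the 17 without a peak, and that of Hand2os1 was met by a peak that also met a coding start. Of all noncoding-start peaks, 8 had a Hox gene as their nearest coding start, a set picked after its values were seen, and the first of them was a 900 bp peak at position 3128 over an exon of Hoxa13 and the start of the TEC transcript 9530018H14Rik.

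Abundant nuclear RNAs and structural RNAs were bound at 5 of the 12 listed genes outside coding windows, beside 2.04% of all noncoding windows. Malat1, a nuclear speckle RNA, had 3 peaks in its start windows. The longest was 3500 bp at position 1224, nearest to a start of Gm37376, and the others were 700 bp at position 3114 and 750 bp at position 6742. Neat1, the scaffold of paraspeckles, had a 250 bp peak at position 8587 and a 550 bp peak at 8765. Miat was at position 8330, and Lncpint had peaks at 9767 and 12915. Terc, the template RNA of telomerase, had a 500 bp peak at position 12000. The peaks at Neat1, Miat and Terc did not cover an annotated start of these genes. The windows of Rn7sk, Rny1, Rny3, Firre and Pvt1 held none.

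MicroRNA genes took 65 peaks by the nearest start and 81 when every miRNA start within reach was counted. The 65 had a median position of 8550, and 11 of them (16.9%, 95% Wilson interval 9.72 to 27.8) were in the first 25% of the list. Among all noncoding-start peaks that share was also 16.9%, with a median position of 9717. By this share miRNA peaks stood no higher in the list than the class as a whole. In protein-coding genes were 42 of the 65, with 26 in introns and 16 over exons. The peak covered the annotated hairpin start at 18 (27.7%).

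All 3 miR-199 genes, which lie in introns of the 3 dynamin genes on the opposite strand, were at a noncoding-start peak. Mir199b in Dnm1 (chromosome 2) was covered by a 1650 bp peak at position 501. This was the earliest of the 65 peaks nearest to a miRNA start, and its nearest start was that of another miRNA gene, Gm23363. A further 1800 bp peak at position 2335 lay downstream of Mir199b, over an exon of Dnm1. The promoter of Dnm1 itself had a 700 bp peak at position 6359. Mir199a-2 in Dnm3 (chromosome 1) was covered by a 2700 bp peak at position 1172 that also covered a start of Dnm3os, the transcript from which miR-199a and miR-214 are cut and which is needed for normal skeletal growth. Another 4 noncoding-start peaks followed within the same locus, 2 of them nearest to Dnm3os at positions 3608 and 11001 and 2 nearest to Mir214 at positions 8022 and 11928. The coding start of Dnm3 had only a 200 bp peak, at position 13333. Mir199a-1 in Dnm2 (chromosome 9) had a 250 bp peak at position 8117, which started 36 bp upstream of the hairpin, and the Dnm2 start a 350 bp peak at position 9605. In all 3 genes the first noncoding-start peak came earlier in the list than the peak at the coding start of the dynamin gene. These 3 loci were singled out after their values were seen.

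Other miRNA loci with peaks in the first 25% of the list included the following. Mir17hg had a 2850 bp peak at position 878 (chr14:115040350-115043199) that covered the host start and ended 472 bp before the Mir17 hairpin, and its window also met those of Mir18, Mir19a, Mir20a, Mir19b-1 and Mir92-1. This cluster promotes proliferation and is needed for normal growth of the skeleton. Genes of the let-7 family had peaks at positions 1602 and 1608. The first, 2300 bp long, lay upstream of Mir99b and Mirlet7e in an intron of Spaca6 and at a RefSeq mRNA start, and the second, 1900 bp long, covered Mirlet7i. Mir212 and Mir132, which share a seed, were met by a 750 bp peak at position 1726, 3531 bp from Hic1. Mir125b-1 had a 3950 bp peak at position 1870, the longest of the miRNA peaks and 422388 bp from the nearest coding start, and Mir125b-2, with the same mature 5p sequence, had a 350 bp peak at position 5494. The third gene with that seed, Mir351 on chromosome X, was met by a 250 bp peak at position 8126.

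Further miRNA genes had peaks along the list. The earliest peak to meet a miRNA start window, 550 bp long at position 207, lay nearest to the lincRNA AC026385.1 and also met the window of Mir7b. A 650 bp peak at position 2781 covered the start of Mir9-3, and a 700 bp peak at position 6595 lay upstream of Mir124a-3. Mir148a had a 600 bp peak at position 3954. Mir193a and Mir193b, which share a seed, had peaks of 250 bp at position 6807 and 900 bp at position 8246. Some miRNA peaks sat over exons of protein-coding genes, as at Mir1905 in Mex3a (position 1366), Mir804 in Cby3 (position 2380), Mir6991 in 2700081O15Rik (position 4044) and Mir7000 in Mapk8ip1 (position 4069).

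**Figure D2:**
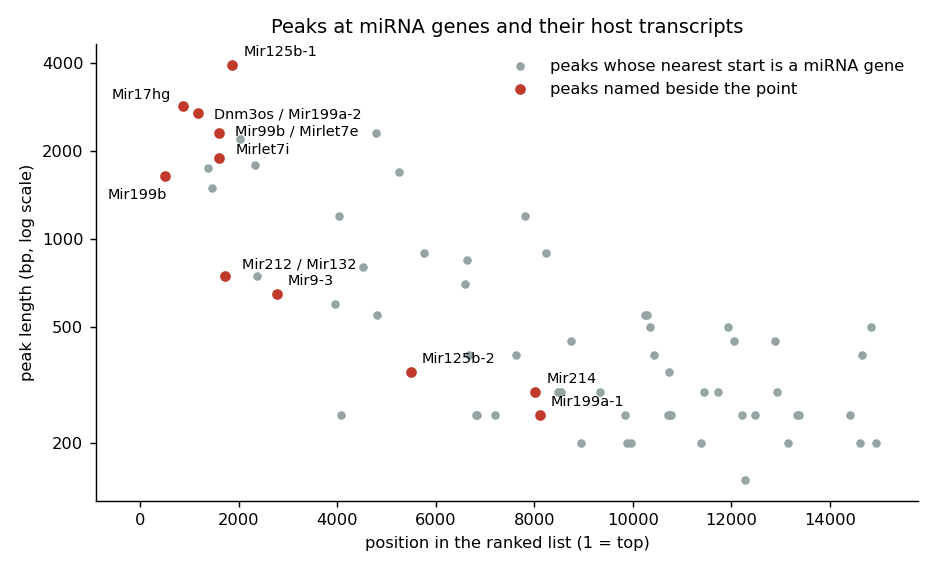
Peak length in bp (log scale) against position in the ranked list (1 is the top) for the 65 peaks nearest to a miRNA start in grey, with the earliest peak at each of 11 named loci in red. Mir199b (position 501), Mir17hg (878) and Dnm3os (1172) stand at the upper left, and Mir214 (8022) and Mir199a-1 (8117) below them.

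Peaks at other small RNAs were seldom near the top of the list. Of 59 such peaks, 1 was in the first 25% (1.69%, 95% Wilson interval 0.2998 to 8.996), the peak over Snora26 in Dancr. Their median length of 400 bp was that of all noncoding-start peaks, none was above 1000 bp, and 30 of the 59 covered the annotated start. Outside protein-coding genes were 42 of them (71.2%). The snRNA gene Gm26001 had an 850 bp peak at position 4207 that did not cover it and lay 7648 bp from Id3. Snord82 had a 400 bp peak at position 5258 over an exon of its host Ncl, the nucleolin gene.

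Genes for the spliceosomal RNAs U1 and U2 made up a large share of these peaks. By RefSeq product names, noncoding-start peaks overlapped, by at least 1 bp, 9 of 123 U1 genes and 6 of 33 U2 genes. Over all snRNA genes of RefSeq the count was 19 of 997. The U1 and U2 genes at peaks lay on chromosomes 1, 3, 11 and 12, mostly in clusters, while the U2 gene Gm23444 on chromosome 11 stood apart. Noncoding-start peaks also overlapped 3 of 5 genes of U3, which acts in ribosomal RNA processing, and 1 of 5 genes of the minor spliceosome RNA U11. No peak of any class covered any of 728 genes of U6, which RNA polymerase III transcribes (0%, 95% Wilson interval to 0.525), and none covered the 12 U4, 11 U5 or 4 U12 genes. Many of the annotated copies of these genes are not known to be functional. Most of the U1 and U2 peaks, and those at Rnu3b4, Rnu3b1 and Rnu3b3, had near-identical sequence elsewhere in the genome, as defined below. Which copy was bound is therefore uncertain, and the counts of genes are of peak positions only. Among the peaks over these genes, that at Rnu3b4 was the earliest at position 4217, followed by U1 copies at positions 5727 and 6118. Rnu11 was at position 12508.

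Nuclear transfer RNA (tRNA) genes, which were taken from RefSeq and had no part in the classes, lay under 9 of the noncoding-start peaks (1.26%, 95% Wilson interval 0.665 to 2.38), 10 of the coding-start peaks (0.0929%) and 11 of the distal peaks (0.284%). Of 403 tRNA genes in RefSeq, 16 were under a noncoding-start peak and 39 under any peak. On chromosome 1, a run of 5 peaks covered 12 of the 16, which lie between 171064164 and 171081315, and include genes for Asp, Glu, Gly and Leu tRNAs. The earliest, 1500 bp long at position 1452, was classed under the miRNA transcript Gm27552 and holds 3 of these tRNA genes. A 2200 bp peak at position 2034 covered both Mir760 and a gene for an Arg tRNA.

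Many of the small RNA and pseudogene peaks lie in repeated sequence. A near-identical copy of the central 300 bp elsewhere in the genome (at least 90% of its length at 95% identity) was found for 73 of 714 noncoding-start peaks (10.2%), against 1.38% of coding-start and 1.45% of distal peaks. The share was 46.7% at pseudogenes (35 of 75), 27.1% at other small RNAs (16 of 59), 9.23% at miRNAs (6 of 65) and 3.62% at lncRNAs (16 of 442). Reads from such copies could not be told apart by the peak positions, so which copy was bound is uncertain.

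A single stretch of chromosome 12, from 17 to 25 Mb, held 21 noncoding-start peaks, of 40 peaks of all kinds there. A near-identical copy was found for 19 of the 21, and 15 were nearest to a pseudogene. These included the first 2 pseudogene peaks of the list, Gm47385 at position 1298 and Gm49330 at position 1476, each 1350 bp long. Gm49326, at a RefSeq mRNA start, was another at position 2382. Outside that stretch, Gm21321 on chromosome 10 was at position 1671 and Gm17661, at a RefSeq mRNA start on chromosome 2, at position 1904. Chromosome 12 as a whole had the highest share of noncoding-start peaks, at 50 of 624 (8.01%). Of the 75 pseudogene peaks, 69 (92%) lay outside protein-coding genes, and their median distance to a coding start was 73381 bp, against 19768 bp for lncRNA peaks.

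TEC transcripts, whose class is not settled, had 71 peaks, and 42 of them were inside a protein-coding gene. The earliest was a 1050 bp peak at position 283 over the start of Gm38197, in an intron of Mecom, a zinc finger gene. Gm37844, over an exon of Kbtbd11, followed at position 333, and A730013G03Rik at position 441 with a peak 16248 bp from Sertad4. Gm43909 had a 1000 bp peak at position 679 over an exon of Bhlhe41, a bHLH repressor gene of the circadian clock. Gm6658, in an intron of Chd9 and at a RefSeq mRNA start, had a 650 bp peak at position 930.

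In the ranked list the noncoding-start peaks stood between the other classes. Their median position was 9717, against 6370 for coding-start and 10375.5 for distal peaks. In the first 25% of the list were 121 of 714 noncoding-start peaks (16.9%, 95% Wilson interval 14.4 to 19.9) and 343 of 3874 distal peaks (8.85%). This difference was 8.09 percentage points (95% interval 5.35 to 11.1, adjusted p = 1.09e-09, two-sided Fisher's exact test over peaks, Benjamini-Hochberg over 7 tests). Coding-start peaks were there more often, at 3372 of 10759 (31.3%), a difference of -14.4 points (95% interval -17.1 to -11.3, adjusted p = 4.25e-17, Fisher's exact test). A longer peak meets more windows and tends to stand earlier in the list, so position was not wholly independent of the split into classes. The part of length in these differences was not tested. When the list was cut at its median position and the first 25% of that upper part was used, the difference from coding-start peaks was -5.37 points and missed the threshold (adjusted p = 0.0642, Fisher's exact test).

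The distribution along the list was not the same as that of distal peaks at its top. The first 10% of the list held 5.74% of the noncoding-start peaks (41), 12.9% of the coding-start and 2.76% of the distal peaks. From the third 10% to the last the intervals of the noncoding-start and distal shares overlapped, and both shares were 14.4% in the eighth. In the last 10% they were 13.0% and 16.2%.

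**Figure D3:**
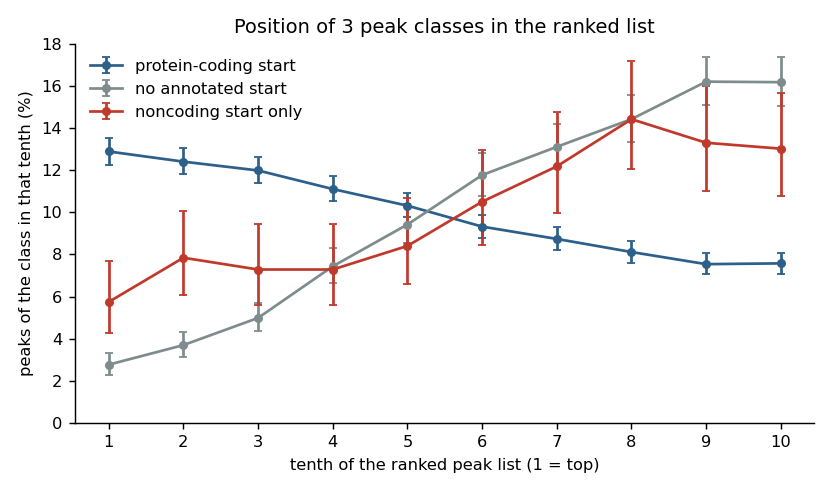
Percent of each peak class that fell in each successive 10% of the ranked list (1 is the top), with 95% Wilson intervals as bars. Noncoding-start peaks start at 5.74%, between the coding-start (12.9%) and distal (2.76%) peaks, and their intervals overlap those of the distal peaks from the third bin on.

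Within the class, lncRNA peaks were in the first 25% of the list at 86 of 442 (19.5%) and peaks of all other types at 35 of 272 (12.9%). The difference of 6.59 percentage points (95% interval 0.93 to 11.8, adjusted p = 0.0239, Fisher's exact test as above) was close to the threshold. It was lost under 6 of the alternatives tried, with adjusted p from 0.0848 to 0.877 (Fisher's exact test), among them the removal of peaks at RefSeq mRNA starts (5.41 points, adjusted p = 0.0867).

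In length the noncoding-start peaks also lay between the other classes. Their median length was 400 bp (quartiles 250 and 650, range 100 to 6000), against 550 bp for coding-start and 300 bp for distal peaks. Length enters the rule in part, since a longer peak meets more windows, and these medians are a description. The 86 peaks of 1000 bp or more (12.04%) had a median position of 2290.5 and the 228 peaks under 300 bp (31.9%) one of 12496. In the first 10% of the list the median was 1550 bp for noncoding-start peaks and 1350 bp for all peaks, and in the last 10% it was 200 and 250 bp. The 10 longest were 2810410L24Rik (6000 bp), Mir125b-1 (3950 bp), Gm37376 at Malat1 (3500 bp), Zswim6 (3400 bp), the pseudogene Gm21321 (3100 bp), Mir17hg (2850 bp), AC141471.6 (2750 bp), Dnm3os (2700 bp), 1810010K12Rik (2650 bp) and Gm26796 (2500 bp).

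In base composition too the noncoding-start peaks lay between the other classes. The central 300 bp of a peak was called CpG-island-like when its GC content was at least 50% and its ratio of observed to expected CpG at least 0.6. This held for 340 of 714 noncoding-start peaks (47.6%), 801 of 3874 distal peaks (20.7%) and 8887 of 10759 coding-start peaks (82.6%). The difference from distal peaks was 26.9 percentage points (95% interval 23.1 to 30.8, adjusted p = 5.47e-47) and that from coding-start peaks -35.0 points (95% interval -38.7 to -31.2, adjusted p = 5.32e-91, both Fisher's exact test over peaks). Median GC content was 57.7% in noncoding-start, 67.7% in coding-start and 51.7% in distal peaks. By type, 65.3% of pseudogene peaks were CpG-island-like, 50.8% of other small RNA, 47.7% of lncRNA, 41.5% of miRNA and 31.0% of TEC peaks.

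CpG-rich members stood higher in the list. Of the 340 CpG-island-like noncoding-start peaks 81 (23.8%) were in the first 25%, against 40 of the 374 others (10.7%), a difference of 13.1 points (95% interval 7.62 to 18.7, adjusted p = 4.14e-06, Fisher's exact test). The order of the classes was the same within CpG-island-like peaks, at 23.8% of noncoding-start, 16.6% of distal and 34.9% of coding-start peaks. Among peaks that were not CpG-island-like the shares were 10.7%, 6.83% and 14.3%, and there the difference between noncoding-start and coding-start peaks (-3.62 points, 95% interval -6.83 to 0.23) missed the threshold (adjusted p = 0.0698, Fisher's exact test). The windows printed above show that early peaks were found in both kinds, with an observed to expected CpG ratio of 1.07 at Mir17hg and 0.913 at Mirlet7i, but 0.271 at Dnm3os and 0.176 at Mir199b.

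**Figure D4:**
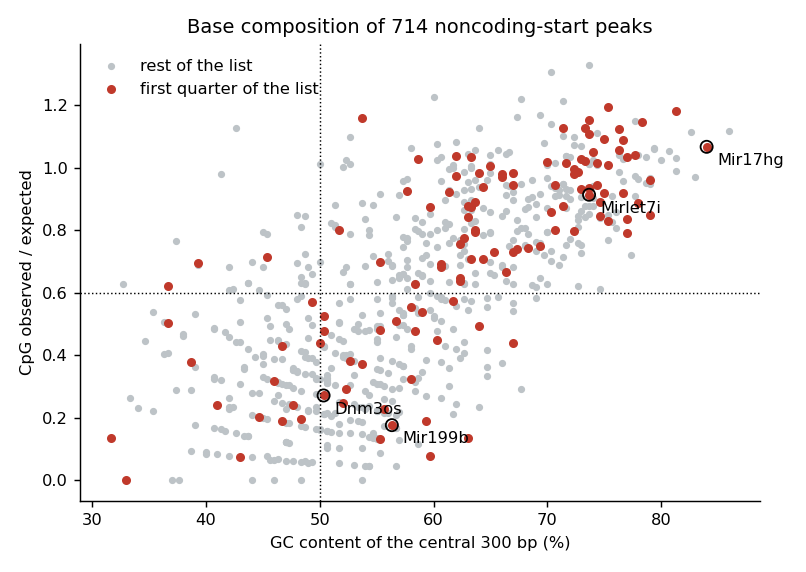
Ratio of observed to expected CpG against GC content (%) in the central 300 bp of each of the 714 noncoding-start peaks, with peaks in the first 25% of the list in red, the rest in grey and dotted lines at the limits for CpG-island-like. Mir17hg and Mirlet7i lie in the upper right, and Dnm3os and Mir199b in the lower part at ratios of 0.271 and 0.176.

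Short promoter motifs differed between the classes in their shares, which are given without a test. Both strands of the central 300 bp were searched for exact letters. The GC box GGGCGG, the core of SP1 sites, was in 38.0% of noncoding-start, 60.8% of coding-start and 21.3% of distal peaks (49.8% of all peaks). The ETS core CCGGAAG was in 3.78%, 11.4% and 3.05% (8.95% of all). CCAAT was in 24.6%, 18.1% and 30.8% (21.6% of all), and TATAAA in 10.9%, 2.57% and 14.1% (5.86% of all). CCACCCA, the core of GLI sites, was in 8.96%, 7.58% and 7.59% (7.65% of all), TGANTCA, the AP-1 site, in 4.62%, 2.62% and 5.81% (3.52% of all), and TGACGTCA, the cAMP response element, in 0.420%, 0.976% and 0.387% (0.801% of all). These are letter matches, which also follow base composition, and no site was tested.

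Around the noncoding start, peaks were centred near it more often than at the edges of the window. The centre lay within 500 bp of the nearest noncoding start in 378 of 714 (52.9%), and the peak covered the start in 251 (35.2%). Each distance is to the nearest of the starts that a peak met, which favours short distances where several were met. Of the lncRNA peaks, 241 had their centre upstream of the start and 199 downstream, while the window reaches further upstream than downstream. In 250 bp bins the largest number of lncRNA peaks, 79, was just downstream of the start. The same bin was the largest for other small RNAs, with 23 peaks, while miRNA peaks had 8 there and 11 in the bin just upstream.

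**Figure D5:**
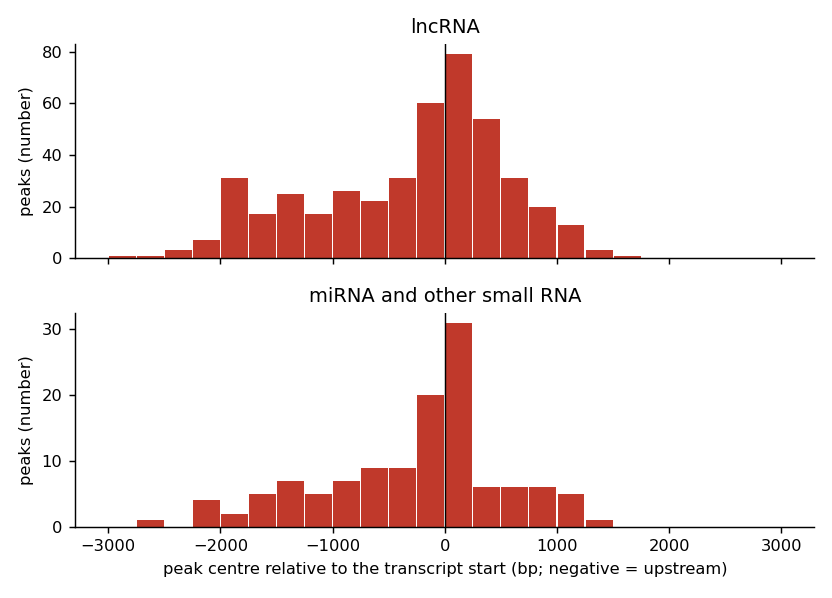
Number of peaks by the distance in bp from the nearest noncoding transcript start to the peak centre, in 250 bp bins, for lncRNA peaks (top) and miRNA and other small RNA peaks (bottom), negative values being upstream. In both panels the highest bin is the one from 0 to 250 bp downstream, with 79 and 31 peaks, and other small RNAs give 23 of the 31.

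Many of the peaks were still close to a protein-coding gene. The median distance to the nearest coding start was 19910.5 bp, and 204 peaks (28.6%) were within 5 kb, 164 of them on the downstream side of the coding start, where the coding window was shorter. Inside a protein-coding gene were 292 peaks, with 205 in introns (28.7%) and 87 over an exon (12.2%), and 422 (59.1%) were outside. For example, a 1600 bp peak at position 1101 was counted under the lincRNA Gm30655 but lay in an intron of Ptch1, a Hedgehog receptor. It was 6665 bp from a Ptch1 start in GENCODE and was also at a RefSeq mRNA start. At the other end, 120 peaks (16.8%) were more than 100000 bp from any coding start. The farthest was a 200 bp peak at position 14398 near the lincRNA C130073E24Rik, 2242010 bp from Tenm3. The next was at the pseudogene Gm10110 on chromosome 14 (1427254 bp from Pcdh20, position 6618). The following 3 (Gm17391, Gm40864 and Gm49251) lay in the repeated stretch of chromosome 12, each at a RefSeq mRNA start.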

How the data were processed

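HDAC1 ChIP-seq was performed on 4 ChIP and 3 input samples of pooled E11.5 limb buds. Per the submitters' processing notes, reads were aligned with Bowtie2 2.2.5 to mm10, and CisGenome was used by the authors to call peaks, with a limit of 0.05 on the false discovery rate (study methods). The deposited file holds coordinates only (other unit: 1-based start and end of 15347 peaks, in order), so depth per sample is not part of it. Row order was taken as rank. Position in the list moves with peak length, whose median over all peaks fell from 1350 bp in the first 10% to 250 bp in the last.

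Peaks were set against GENCODE M21 basic starts, with type by transcript. Base composition, motifs and copies (minimap2 2.31) were taken from the central 300 bp in GRCm38. Shares were compared by two-sided Fisher's exact tests (scipy 1.17.1) with 95% Wilson and Newcombe intervals and Benjamini-Hochberg adjustment over 7 tests at a threshold of 0.05. The overlap rule and the tests were tested on simulated data. Of 617 genes, 330 matched RefSeq by symbol.

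The members, gene lists and tests were chosen with earlier results of these data known. Named were, by a rule, the 5 earliest members of each type, the 10 longest, the 5 farthest from a coding start, the 15 earliest miRNA members and listed genes at a member, and others are named as examples. Alternatives changed the list, overlap, windows, coding class, types, chromosomes, composition window, merging and rank threshold.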

Additional observations from a re-analysis of the deposited data

How the results depend on the processing

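No paired analysis was possible because a single list pools the ChIP samples, and for the same reason no replicate could be left out. Over 15 alternative settings, 110 values were recomputed, and none with a direction was turned. Apart from the parts of the list or genome given next, the number of noncoding-start peaks ran from 491, with peaks no more than 1000 bp apart merged, to 792 with 5 kb windows. With the list cut at its median position there were 261 noncoding-start peaks with a median length of 700 bp, 22.2% of them within 5 kb of a coding start, and the differences in the share in the first 25% were -5.37 points from coding-start peaks and 1.59 for lncRNA against other types, neither past the threshold. That lncRNA difference was also lost with 500 bp windows (4.001), on odd-numbered (6.66) and even-numbered autosomes (5.93), with the first 50% in place of the first 25% (2.04) and, chosen after seeing the data, without peaks at RefSeq mRNA starts (5.41). Within peaks that were not CpG-island-like, also added later, the difference from coding-start peaks was -3.62 points. Odd-numbered autosomes held 387 noncoding-start peaks (32.3% within 5 kb, 46.0% inside a coding gene) and even-numbered ones 311 (25.1% and 35.7%). When the peak centre had to lie in the window, 34.9% were within 5 kb and 45.04% inside a coding gene. Windows of 5 kb gave 0% within 5 kb by construction and 27.8% inside a gene, and 500 bp windows gave 35.9% within 5 kb and a median length of 450 bp. Of the 714 peaks, 510 remained with 5 kb windows and 459 with 500 bp windows. Apart from fewer peaks in the parts of the list or genome, the cause of these changes was not tested. Depth could not be weighed, since the list gives none.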
